A study of Mus musculus with 22 samples.

Results

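The cathepsins are the main proteases of the lysosome, and the 10 genes described here, Ctsa, Ctsb, Ctsc, Ctsd, Ctsf, Ctsh, Ctsk, Ctsl, Ctss and Ctsz, were chosen by name from a table of 21995 genes of mouse spinal cord. All 10 were in the table and all 10 passed the filter on low counts in each comparison. RNA was sequenced from whole spinal cord, extruded in cold saline, of 22 mice on the C57BL/6 strain. Wild-type young mice of 3 to 4 months (n = 8) were compared with wild-type old mice of 18 to 24 months (n = 8), and these mice were male. SOD1-G93A mice of 5 to 6 months (n = 3), a model of amyotrophic lateral sclerosis (ALS), were compared with wild-type control mice of the same age (n = 3). These last groups held both sexes, and the sex of each library is not given. The transgene of SOD1-G93A mice, a mutant human SOD1 present in high copy number, is active throughout the body beside the mouse's own Sod1. The young and old libraries were made with a KAPA HyperPrep kit and the other 6 with a TruSeq kit, so levels were compared only within an experiment.

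Cathepsins are made as inactive precursors, carried to the lysosome largely by mannose 6-phosphate receptors, and activated there by removal of a propeptide. Most are cysteine proteases, whereas cathepsin D is an aspartic protease and cathepsin A a serine carboxypeptidase. In the central nervous system microglia are a rich source of several of them, and neurons also depend on cathepsin D, since its loss causes the lysosomal storage disease neuronal ceroid lipofuscinosis.

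Total counts per library ranged from 5078092 to 9358055 in young mice, from 5664869 to 9145600 in old mice, from 10693060 to 13219797 in controls and from 9675610 to 11872431 in SOD1-G93A mice. Values below are CPM (counts scaled to library size), scaled by the trimmed mean of M-values (TMM) within each experiment, unless another scale is named. Counts assigned to mouse Sod1 were 156, 156 and 168 CPM in controls and 296, 298 and 335 CPM in SOD1-G93A mice, so every library matched its label by this measure, in which reads of the mouse gene and of the human transgene were not told apart. Markers of microglia were present in every library. One old mouse stood apart from the other 7 in most cathepsins and is described with the aging comparison.

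Start regions are shown for 3 of the genes because they bracket the range of behaviour: Ctsd and Ctss were among the genes that rose most, and Ctsk, which lies next to Ctss, was the single one that fell. Ctsk (chr3:95499256-95509362) and Ctss (chr3:95526786-95556403) lie on the + strand of chromosome 3, 17423 bases apart, with 0 protein-coding genes between them. Ctsd lies on the - strand (chr7:142375911-142388038). The 120 bases before each RefSeq start site (GRCm38.p6) are at chr7:142387828-142387947 on the - strand, chr3:95526666-95526785 on the + strand and chr3:95499090-95499209 on the + strand, in that order, and capitals mark an E-box (CACGTG) with its flanking T and A in Ctsd and the core of an interferon-stimulated response element (ISRE, GAAANNGAA) in Ctss.
Ctsd: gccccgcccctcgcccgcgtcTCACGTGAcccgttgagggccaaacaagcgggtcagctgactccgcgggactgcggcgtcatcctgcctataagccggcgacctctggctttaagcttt
Ctss: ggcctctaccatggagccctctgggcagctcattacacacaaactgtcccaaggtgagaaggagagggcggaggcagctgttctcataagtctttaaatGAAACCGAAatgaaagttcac
Ctsk: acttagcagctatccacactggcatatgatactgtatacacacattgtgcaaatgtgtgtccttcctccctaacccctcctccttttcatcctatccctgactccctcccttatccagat

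RefSeq windows from 250 bases before to 50 bases after a start site were available for 8 of the 10 genes, Ctsa having 2 of them, and Ctsb and Ctsh had none. The window of Ctsl (chr13:64370471-64370770, - strand) lies wholly within the annotated gene (chr13:64359337-64370890), downstream of its annotated start. Each window was searched on both strands for 4 sets of letters. The E-box, the core of the site bound by TFEB and related factors that switch on lysosomal genes, was in the windows of Ctsd, Ctsf, Ctsl and the downstream window of Ctsa, against 7.15% of 32851 windows in the table. The longer form of that site, TCACGTGA, which contains the E-box, was in the window of Ctsd and the downstream window of Ctsa, against 0.974% of all windows. This length was set after a longer search, with a further G before and C after it, had matched none of the windows of the 10 genes. The letters GAGGAAGT, a form of the site of the myeloid factor PU.1, were in the windows of Ctsc and Ctss, against 3.20% of all windows. The ISRE core, a search added after the sequence of Ctss was seen, was in the window of Ctss, against 8.56%, and the windows of Ctsk and Ctsz held none of the 4.

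Levels between genes were compared per length, in FPKM (fragments scaled to gene length and library size). Ctsd was the most abundant of the 10 transcripts in every group, at 185 ± 9.01 FPKM in young mice (SD, n = 8), and Ctsb was next at 129 ± 8.46 FPKM. In young mice Ctss at 56.7 FPKM, Ctsa at 51.5 FPKM and Ctsl at 43.4 FPKM followed, with ranges that overlapped between Ctss and Ctsa and between Ctsa and Ctsl. Ctsf at 24.7 FPKM and Ctsz at 24.3 FPKM could not be ordered, since Ctsf was above Ctsz in 3 of 8 mice. Ctsh at 10.7 FPKM, Ctsk at 4.06 FPKM and Ctsc at 3.61 FPKM were lowest, and the ranges of Ctsk and Ctsc overlapped. In control mice the order of the group means was the same.

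In old mice Ctsd reached 526 ± 132 FPKM, Ctsb 205 ± 31.4 FPKM and Ctss 184 ± 35.6 FPKM, and Ctss was above Ctsb in 1 of 8 mice. Ctsa, Ctsz and Ctsl lay at 73.4, 70.8 and 69.5 FPKM with overlapping ranges. In SOD1-G93A mice (n = 3) the mean FPKM was 1580 ± 652 for Ctsd, 509 ± 150 for Ctsb and 474 ± 157 for Ctss, and the ranges of Ctsb and Ctss overlapped. Ctsz, at the seventh place in controls, followed at 188 FPKM with a range that overlapped that of Ctsl, and Ctsk was lowest at 2.16 FPKM, with Ctsc at 18.5 FPKM above it in all 3 mice. Together the 10 genes made up 0.133 to 0.153% of all counts in young mice, 0.174 to 0.332% in old mice, 0.133 to 0.144% in controls and 0.487 to 0.994% in SOD1-G93A mice. Ctsd and Ctsb gave 70.3 to 77.3% of those counts in every library.

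**Figure D1:**
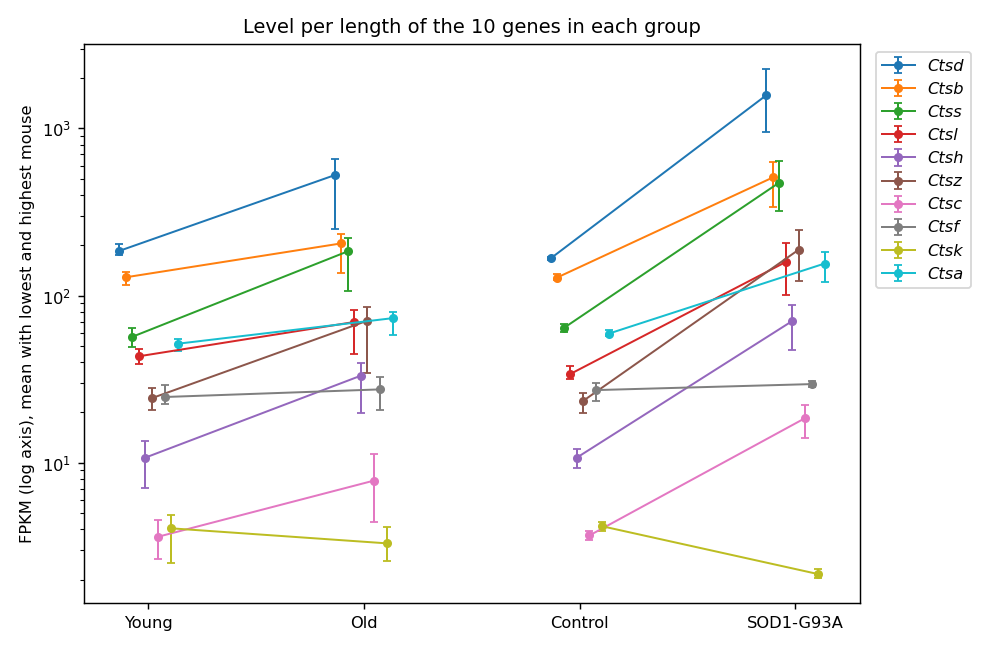
Mean FPKM of each of the 10 genes in young, old, control and SOD1-G93A mice on a log axis, with bars from the lowest to the highest mouse and lines joining the groups compared. Ctsd is highest in each group, at 185, 526, 167 and 1580 FPKM, and Ctsk falls from 4.17 to 2.16 FPKM between control and SOD1-G93A mice while Ctsc rises from 3.68 to 18.5 FPKM.

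The first comparison asked which transcripts differ between old and young spinal cord. Of the 10 cathepsins, 8 rose with age, 0 fell and Ctsf and Ctsk did not pass the test (edgeR's quasi-likelihood test, Benjamini-Hochberg adjusted p under 0.05 over 13647 genes). Among all genes tested 13.5% rose and 12.9% fell. Ctsh, Ctss, Ctsz, Ctsd and Ctsc were also past a log2 fold change of 1, as were 2.18% of all genes, and none was past -1, as were 0.044%. The median log2 fold change was 0.86 over the 10 genes and -0.0027 over all genes. For 7 of the 10, every old mouse was above every young mouse, which held for 3.66% of all genes, and for none was every old mouse below, which held for 1.66%.

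Cathepsin S, which in the brain and spinal cord is known mainly from microglia and keeps its activity at neutral pH, had 69.9 CPM in the lowest young mouse, 80.9 in the median and 90.0 in the highest. In old mice the lowest was 166, the median 268 and the highest 319 CPM. The groups did not overlap, and Ctss was 3.24-fold higher in old mice (log2 fold change 1.70, SE 0.09, edgeR adjusted p = 5.21e-12). Ctsh, an aminopeptidase, ranged from 10.1 to 14.3 CPM with a median of 12.6 in young mice and from 27.8 to 49.5 CPM with a median of 40.6 in old mice. It was 3.26-fold higher (log2 fold change 1.70, SE 0.10, edgeR adjusted p = 3.27e-11), again without overlap.

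Ctsd, the aspartic endoprotease, had its lowest, median and highest young values at 355, 373 and 401 CPM, a narrow range. In old mice they were 568, 1124 and 1253 CPM. Old mice were thus more spread than young mice, but all 8 were above every young mouse (log2 fold change 1.50, SE 0.11, edgeR adjusted p = 3.73e-10). For Ctsz, a carboxypeptidase, the young values were 31.3, 36.8 and 41.3 CPM and the old values 57.1, 111 and 129 CPM. The groups were apart for Ctsz too, with a 2.91-fold difference (log2 fold change 1.54, SE 0.11, edgeR adjusted p = 4.63e-10). An annotated gene, Gm49369, shares exons with Ctsd on the same strand, and 32.4% of the 50-base sequences of Ctsd transcripts also occur in it. Its own fitted log2 fold change was 1.20 (edgeR adjusted p = 1.2e-08). With the CPM of both genes summed, a sum chosen after seeing the data, the ratio of old to young means was 2.76 in place of 2.82.

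Ctsc, a dipeptidyl peptidase that activates the serine proteases of immune cell granules, was scarce. Its CPM was 6.79, 9.17 and 12.01 in the lowest, median and highest young mouse and 10.5, 19.5 and 23.4 in the old mice. Here the groups overlapped, with 7 of 8 old mice above every young mouse, and the log2 fold change was 1.03 (SE 0.13, edgeR adjusted p = 2.12e-06). It lay close to the fold threshold, from 0.98 to 1.11 when single libraries were left out and 0.91 with limma on log2(FPKM + 1). Its granule substrates were not measurable: of 11 listed genes for granzymes, neutrophil and mast cell proteases, 0 passed the filter in either experiment, and their summed level stayed at or under 2.64 CPM in every library.

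The endoproteases Ctsb and Ctsl rose less. Ctsb had 599, 656 and 683 CPM in the lowest, median and highest young mouse and 766, 1076 and 1137 CPM in the old mice (log2 fold change 0.67, SE 0.06, edgeR adjusted p = 1.66e-08). Ctsl had 83.0, 87.3 and 99.4 CPM and 102, 151 and 161 CPM (log2 fold change 0.68, SE 0.07, edgeR adjusted p = 1.67e-07). Neither pair of groups overlapped, although the lowest old mouse was close to the highest young mouse for Ctsl. Ctsa, which also protects beta-galactosidase and neuraminidase in a complex, had 108, 115 and 123 CPM in young mice and 148, 173 and 190 CPM in old mice, without overlap (log2 fold change 0.59, SE 0.05, edgeR adjusted p = 2.34e-09). Exons of Ctsa overlap Neurl2 and Pltp on the other strand, those of Ctsb Fdft1 and those of Ctsz Nelfcd, and whether counting used the strand is not given in the sources used here. Of the 50-base sequences of Ctsl transcripts 6.46% also occur in other annotated genes. Of these neighbours, Pltp rose with age (log2 fold change 0.41, edgeR adjusted p = 0.000356), Fdft1 and Nelfcd did not pass the test, and Neurl2 was below the filter on low counts.

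Ctsf, a cysteine protease whose loss also causes a ceroid lipofuscinosis, had 47.2, 49.1 and 59.1 CPM in young mice and 47.8, 57.3 and 64.9 CPM in old mice. The groups overlapped and the log2 fold change was 0.16 (SE 0.06, edgeR adjusted p = 0.061). Leaving out the lowest old mouse gave 0.19 (adjusted p = 0.0134) and leaving out 1 young mouse also brought it past the threshold (adjusted p = 0.0239). Ctsk, best known as the collagen-cleaving protease of osteoclasts, had 4.02, 6.86 and 7.49 CPM in young mice and 4.17, 5.20 and 6.27 CPM in old mice, from 31 to 67 reads a library. These overlapped as well (log2 fold change -0.30, SE 0.14, edgeR adjusted p = 0.106), and the adjusted p was 0.0296 without 1 young mouse, the lowest of its group.

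**Figure D2:**
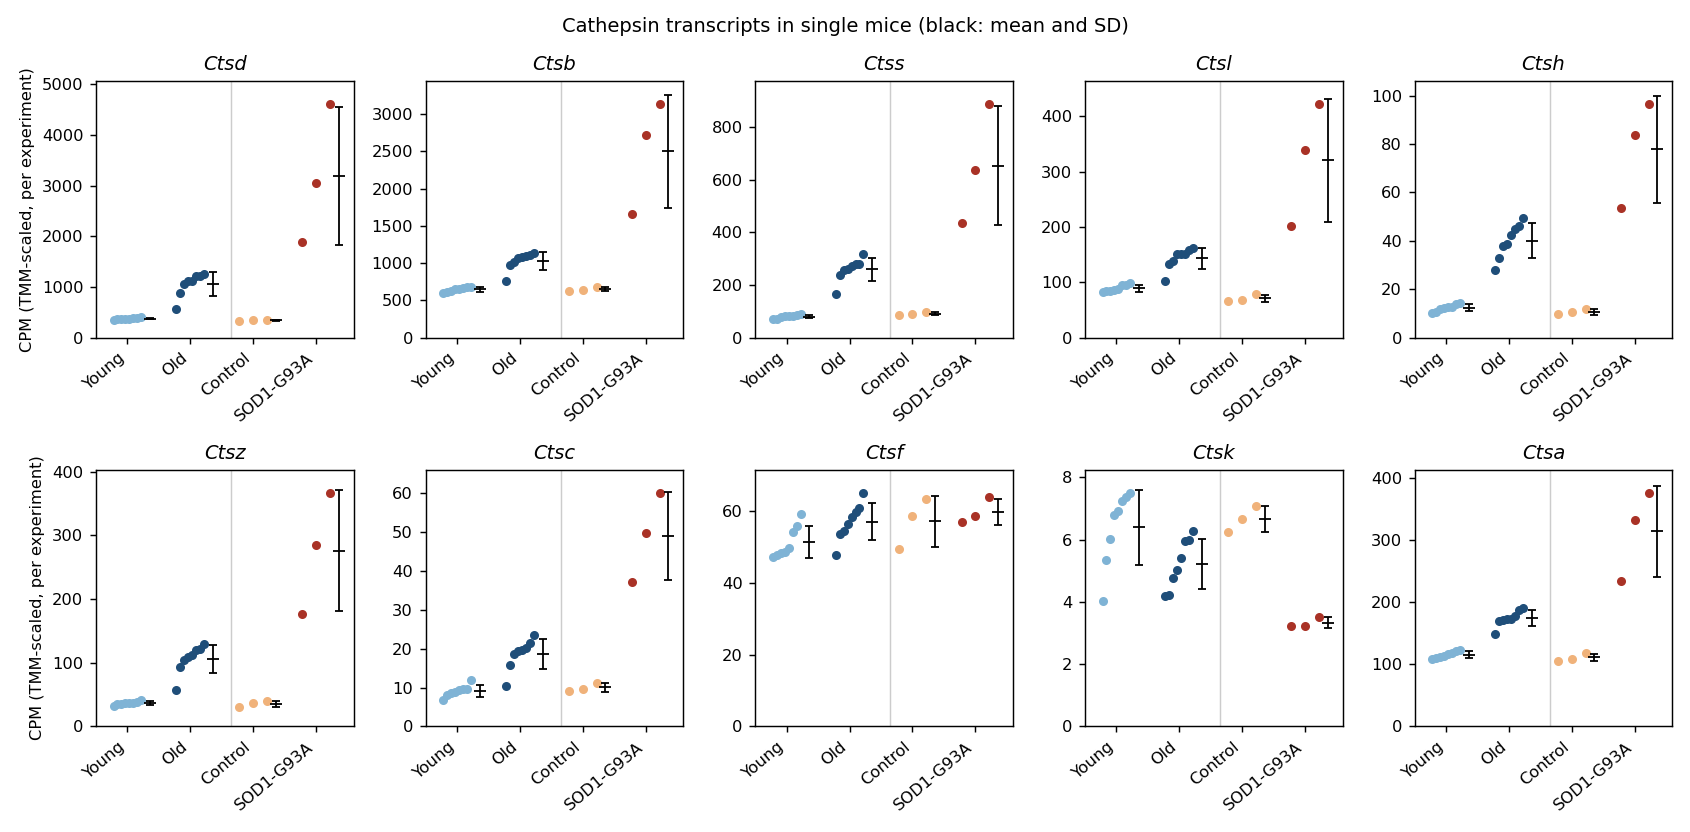
CPM of each of the 10 genes in every mouse, within each group drawn from lowest to highest, with the mean and SD in black. The vertical line separates the experiments, which were scaled separately. For Ctss the old mice span 166 to 319 CPM above young mice at 69.9 to 90.0 CPM, and Ctsk is the gene in which all 3 SOD1-G93A mice (3.22 to 3.53 CPM) lie below the controls.

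The old mice did not respond alike. A single old mouse had the lowest value of its group for 9 of the 10 cathepsins, Ctsk being the exception, and its summed level of the 10 genes was 1898 CPM against 2605 to 3235 CPM in the other 7 and 1338 to 1507 CPM in young mice. Its library was of middling depth, with 7055388 counts and 2 old libraries below it. Over all tested genes it was also the old library least like its group. Its median Spearman correlation with the other old libraries was 0.983, against 0.988 to 0.991 for the other 7. Its summed level of 9 microglia markers was also the lowest of the old mice, at 337 CPM against 354 to 429 CPM, yet above the 240 to 271 CPM of young mice. Without this mouse 9 of 10 cathepsins rose and 5 were past a log2 fold change of 1, with Ctsd at 1.59 and Ctss at 1.77.

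**Figure D3:**
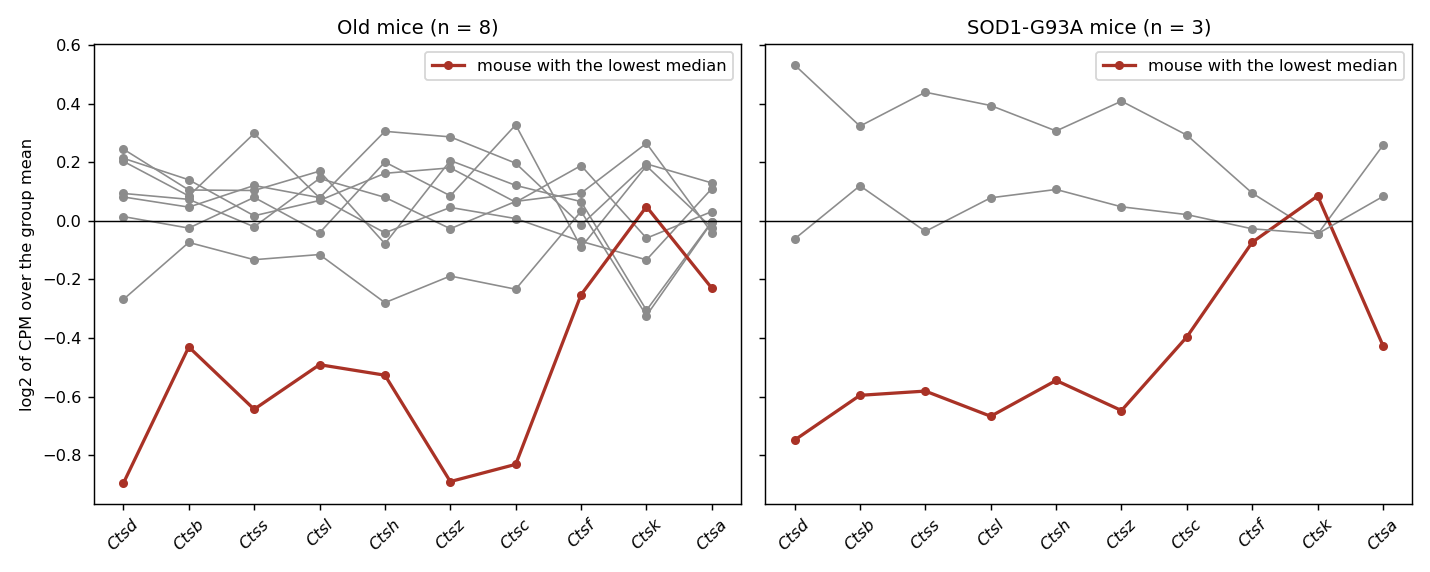
log2 of each mouse's CPM over its group mean for the 10 genes, for old and for SOD1-G93A mice, with lines joining the genes of 1 mouse. The old mouse in red lies under the other 7 for every gene but Ctsk, and in SOD1-G93A mice the mouse in red is lowest for 9 of 10 genes.

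Within the 8 old mice each cathepsin was set against the mean log2 CPM of 9 microglia markers (Cx3cr1, P2ry12, Tmem119, Aif1, Csf1r, Itgam, Sall1, Fcrls and Siglech), which makes 10 relations. For Ctsb Pearson's r was 0.88 (exact permutation p = 0.00201, adjusted 0.0147) and Spearman's rho 0.90 (exact permutation p = 0.00456, adjusted 0.0228), and r was 0.95 without the 2 mice farthest from the median. For Ctsd r was 0.83 (exact permutation p = 0.0129, adjusted 0.0323) and rho 0.86 (exact permutation p = 0.0107, adjusted 0.0357), and r was 0.86 without those mice. Ctsl had r = 0.88 (exact permutation p = 0.00441, adjusted 0.0147) but rho = 0.69 (exact permutation p = 0.0694, adjusted 0.173), and its r was 0.83 without them. Ctsf had r = 0.87 (exact permutation p = 0.00317, adjusted 0.0147) and rho = 0.93 (exact permutation p = 0.00223, adjusted 0.0223), and its r was 0.58 without the 2 mice. Ctsz had r = 0.75, which missed the adjusted threshold (exact permutation p = 0.0279, adjusted 0.0559). Ctss, Ctsa, Ctsc and Ctsh had r of 0.56 to 0.67, none past the adjusted threshold, and Ctsk had r = -0.14. On log2(FPKM + 1) 6 of the 10 passed by Pearson's r, the same 4 with Ctsa and Ctsz, and 3 of them, Ctsb, Ctsf and Ctsl, also passed by Spearman's rho. On that scale r without the 2 farthest mice was 0.83 for Ctsf, against 0.58 on log2 CPM, and 0.40 for Ctsz. In tissue RNA, fewer cells of a type and less RNA per cell cannot be told apart.

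Of the microglia markers 6 of 9 rose with age and none fell, while 13.5% of all genes rose and 12.9% fell. Their median log2 fold change was 0.69 against 0.86 for the cathepsins. P2ry12, Sall1 and Siglech did not pass the test. Other immune cells left little RNA. None of the neutrophil, monocyte, T cell and border macrophage markers passed the filter in the aging experiment, with summed levels of at most 3.40, 3.13, 3.20 and 7.58 CPM in any library, and the neutrophil markers Elane and Ly6g were at 0 in all 16. The part of microglia number or state in the cathepsin differences was not tested.

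The second comparison asked which transcripts differ between SOD1-G93A and control spinal cord. The same 8 cathepsins rose, each past a log2 fold change of 1, Ctsk fell and Ctsf did not pass the test. Among the 14386 genes tested 18.4% rose, 15.5% fell, 8.5% rose past 1 and 1.2% fell past -1. In 8 of the 10 genes every SOD1-G93A mouse was above every control, as in 25.7% of all genes, and in 1, Ctsk, every one was below, as in 24.7%. The median log2 fold change was 2.24 over the 10 genes and 0.0031 over all genes. With 3 mice against 3 the exact permutation test cannot go below p = 0.1, which was its value for those 9 genes, so the adjusted p-values rest on the spread edgeR estimated across genes.

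Ctsd changed most. It had 339, 348 and 358 CPM in controls and 1894, 3048 and 4603 CPM in SOD1-G93A mice. Even the lowest of the 3 diseased mice was far above every control, and the difference was 9.13-fold (log2 fold change 3.19, SE 0.28, edgeR adjusted p = 0.000197). For the overlapping Gm49369 the log2 fold change was 1.98 (edgeR adjusted p = 0.00218), and with the CPM of both summed the ratio of the means was 8.77. Ctsz had 30.0, 37.0 and 39.7 CPM in controls and 176, 285 and 366 CPM in SOD1-G93A mice, a 7.78-fold difference (log2 fold change 2.96, SE 0.25, edgeR adjusted p = 0.000173).

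Ctsh and Ctss, the genes that rose most in old mice, came next, and neither showed overlap. Ctsh had 9.60, 10.5 and 12.1 CPM in controls and 53.4, 83.9 and 96.3 CPM in SOD1-G93A mice (log2 fold change 2.87, SE 0.22, edgeR adjusted p = 0.000124). Ctss had 86.6, 90.1 and 96.2 CPM in controls and 437, 637 and 886 CPM in SOD1-G93A mice (log2 fold change 2.84, SE 0.23, edgeR adjusted p = 0.00015). Cathepsin S removes the last part of the invariant chain from class II molecules and releases soluble fractalkine. Ctsc had 9.18, 9.68 and 11.3 CPM in controls and 37.3, 49.8 and 60.1 CPM in SOD1-G93A mice, a 4.89-fold difference (log2 fold change 2.29, SE 0.18, edgeR adjusted p = 0.000147).

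The broad endoproteases rose too, and more than in aging. Ctsl had 66.0, 67.8 and 79.0 CPM in controls and 202, 339 and 422 CPM in SOD1-G93A mice (log2 fold change 2.18, SE 0.24, edgeR adjusted p = 0.000422). Ctsb had 632, 641 and 684 CPM and 1654, 2717 and 3129 CPM (log2 fold change 1.94, SE 0.21, edgeR adjusted p = 0.000407). For neither gene did the groups overlap. Ctsa had 106, 109 and 118 CPM in controls and 234, 333 and 376 CPM in SOD1-G93A mice, a 2.83-fold difference (log2 fold change 1.50, SE 0.16, edgeR adjusted p = 0.000414). Of the genes overlapping these on the other strand, Fdft1 fell (log2 fold change -0.88, edgeR adjusted p = 0.0105) while Ctsb rose, and Pltp, Neurl2 and Nelfcd did not pass the test.

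Ctsf and Ctsk again stood apart from the other 8. Ctsf had 49.3, 58.6 and 63.2 CPM in controls and 56.8, 58.6 and 63.8 CPM in SOD1-G93A mice, fully interleaved (log2 fold change 0.07, 95% interval -0.14 to 0.28, edgeR adjusted p = 0.662), and the sign turned without 1 control mouse (-0.0305). Ctsk had 6.23, 6.64 and 7.07 CPM in controls, from 70 to 92 reads, and 3.22, 3.22 and 3.53 CPM in SOD1-G93A mice, from 35 to 38 reads. All 3 SOD1-G93A mice were below all 3 controls, with a log2 fold change of -1.0003 (SE 0.19, edgeR adjusted p = 0.00587). This value sits on the fold threshold, ranging from -1.05 to -0.96 when single libraries were left out and reaching -0.71 with limma on log2(FPKM + 1), while its adjusted p stayed under 0.05 in every alternative, the highest being 0.0299. Of 7 tested markers of fibroblasts, cells that express Ctsk in many tissues, 1, Col1a1, rose (log2 fold change 1.35) and none fell. Over all genes 18.4% rose and 15.5% fell. The summed level of the 8 listed fibroblast markers was 105 to 109 CPM in controls and 110 to 207 CPM in SOD1-G93A mice. Most reads of this sum in controls were those of Pdgfra (533 to 698) and Col1a2 (340 to 466), against 45 to 69 for Col1a1. Pdgfra also marks oligodendrocyte precursors in spinal cord, so the sum is not a measure of fibroblasts alone. Neither Pdgfra nor Col1a2 passed the test (edgeR adjusted p = 0.179 and 0.0696), and both are named after their values were seen. The part of fibroblasts in the Ctsk difference was not tested.

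**Figure D4:**
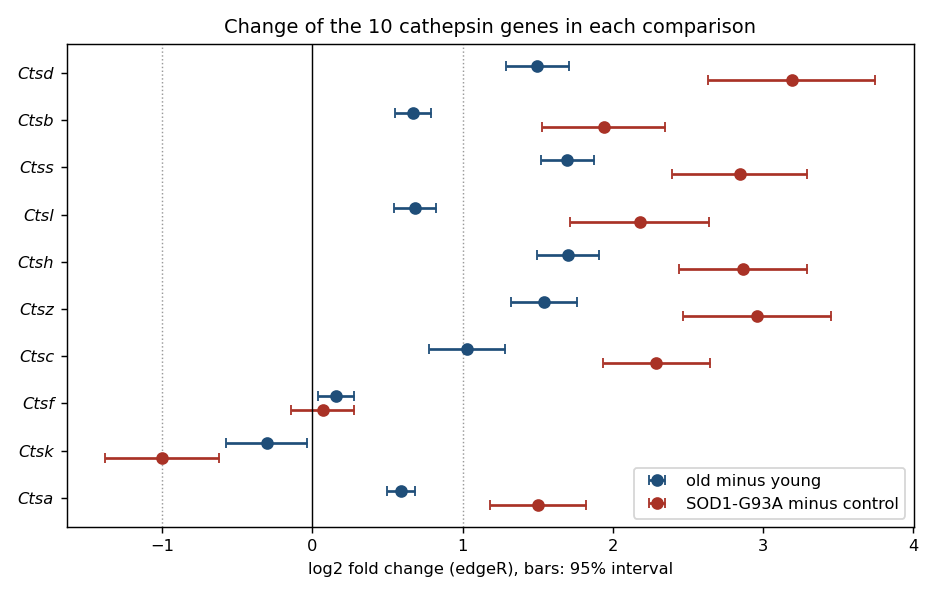
log2 fold change of the 10 genes in old against young mice and in SOD1-G93A against control mice, with bars for the 95% interval from the edgeR fits and dotted lines at -1 and 1. Ctsd reaches 1.50 and 3.19, Ctsf lies at 0.16 and 0.07, and Ctsk lies at -0.30 and -1.0003.

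The 3 SOD1-G93A mice kept 1 order across the family. One mouse was highest for 9 of the 10 genes and another lowest for 9, with Ctsk the exception in each. Their summed levels were 10005, 7555 and 4748 CPM, against 1349 to 1463 CPM in controls, and their summed microglia markers followed the same order at 1001, 904 and 699 CPM, against 264 to 313 CPM. Library depth had this order too, at 11872431, 10926373 and 9675610 total counts. The coefficient of variation of Ctsd was 42.7% in SOD1-G93A mice and 2.70% in controls. Of the microglia markers 5 of 9 rose and none fell, with a median log2 fold change of 1.79. Motor neuron markers fell in 4 of 6 and neuron markers in 6 of 8, whereas 5 of 7 astrocyte markers rose. Over all genes 18.4% rose and 15.5% fell. Of 6 border macrophage markers 4 passed the filter, each only with the reads of SOD1-G93A libraries, so their calls are not counted, and the summed level of the 6 was 1.77 to 3.70 CPM in controls and 8.26 to 17.8 CPM in SOD1-G93A mice. Neutrophil, monocyte and T cell markers again did not pass the filter, with summed levels of at most 2.63, 2.78 and 1.43 CPM. The part of these cell types in the cathepsin differences was not tested.

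The change in SOD1-G93A mice was then set against the change in old mice in 1 fit of all 22 libraries. For the 8 cathepsins that rose in each comparison the rise was larger in SOD1-G93A mice, Ctsk had a lower change there and Ctsf did not pass the test, against 11.6% of 14502 genes with a higher and 14.2% with a lower change. The excess was largest for Ctsd, at 1.67 log2 units (SE 0.26, edgeR adjusted p = 5.3e-05). It was 1.47 for Ctsl, 1.40 for Ctsz, 1.24 for Ctsb, 1.23 for Ctsc, 1.14 for Ctsh and 1.12 for Ctss, with SE of 0.17 to 0.25, and differences between genes were not tested. The smallest was that of Ctsa, 0.88 (SE 0.13, edgeR adjusted p = 3.13e-05). For Ctsk the difference was -0.72 (SE 0.24, edgeR adjusted p = 0.0282), and it no longer passed without 1 of the controls or either of 2 SOD1-G93A mice, with adjusted p up to 0.084. For Ctsf the 95% interval of the difference ran from -0.35 to 0.12. Kit, age and the sexes used differ between the experiments and cannot be told apart from the condition in these differences.

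Other cathepsins were few. Of 13 further family members, 10 had no count in any library, among them the granule protease Ctsg and the placental group, and Ctsw was below the filter. Ctso, a cysteine protease, had 39.1 to 48.3 CPM in young and 41.7 to 55.0 CPM in old mice, which overlapped (log2 fold change 0.19, edgeR adjusted p = 0.0309). This call was lost in 10 of 22 alternatives, with adjusted p up to 0.0714 without single mice and up to 0.101 in any alternative. Ctso rose in SOD1-G93A mice without overlap (0.84, edgeR adjusted p = 0.00193). Ctse, an aspartic protease outside the lysosome, had at most 1 read in any young mouse and 3 to 17 reads in old mice, at least 3.57-fold higher in the mean than a floor of 3 reads per young library. It had at most 3 reads in any control and a mean of 4.35 CPM in SOD1-G93A mice, at least 17.0-fold higher by the same floor. There it passed the filter only with the reads of SOD1-G93A mice, so no p-value is given.

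Several genes for inhibitors of cathepsins rose. Of 18 listed genes in the table, 6 passed the filter in aging and 7 in the ALS model. Of these, 2 in each, Cst7 with Serpina3g in aging and Cst7 with Ctla2b in the ALS model, passed it only with the reads of the group in which they were higher, so no count or median over the list is given. Cst7, which encodes cystatin F, a lysosomal inhibitor that acts on cathepsin C among others, had at most 2 reads in any young mouse and a mean of 14.1 CPM in old mice, at least 35.5-fold above the floor. In the ALS model it had 0 to 8 reads in controls, and every SOD1-G93A mouse was above every control. No p-value is given, since it passed the filter only with the reads of the higher group. Cst3, encoding the abundant secreted cystatin C, rose by 0.35 with age (edgeR adjusted p = 0.000128) and by 1.02 in the ALS model (edgeR adjusted p = 0.00393), and Cstb, encoding the cytosolic cystatin B, by 0.43 (adjusted p = 0.00051) and 0.97 (adjusted p = 0.00315). Ctla2a, which resembles a cathepsin propeptide, rose by 0.73 with age and by 1.47 in SOD1-G93A mice (edgeR adjusted p = 0.00272 and 0.0215), the latter not past the threshold without any 1 of 3 libraries, up to 0.079. Its relative Ctla2b was below the filter in aging. In the ALS model Ctla2b had 9 to 19 reads in controls, and every SOD1-G93A mouse was above every control. No p-value is given for it, for the same reason as for Cst7. Cst6, encoding cystatin E/M, had log2 fold changes of 0.36 in aging and -0.20 in the ALS model (edgeR adjusted p = 0.234 and 0.611). Serpina3g, encoding a serpin, had 0.12 in aging, where the groups overlapped, and -0.74 in the ALS model (edgeR adjusted p = 0.148).

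The genes that deliver and activate cathepsins moved little. Of 10, 2 rose and none fell in aging, with a median log2 fold change of 0.02, while 13.5% of all genes rose and 12.9% fell. In the ALS model 3 rose and 1 fell, with a median of 0.13, while 18.4% of all genes rose and 15.5% fell. Lgmn, encoding legumain, a protease that processes several cathepsins, rose by 0.33 and 0.68 (edgeR adjusted p = 4.16e-07 and 0.00395). M6pr, encoding the smaller mannose 6-phosphate receptor, rose by 0.15 and 0.36 (edgeR adjusted p = 0.00337 and 0.0118, the latter up to 0.0557 without single mice). Nagpa, which uncovers the mannose 6-phosphate tag, rose by 0.77 in SOD1-G93A mice (edgeR adjusted p = 0.00847) and was not past the threshold in aging (0.23, adjusted p = 0.209), and the difference between these changes was not past it either (adjusted p = 0.114). Sort1, an alternative sorting receptor, fell by 0.35 in SOD1-G93A mice (edgeR adjusted p = 0.0218), a call lost without any 1 of 5 libraries, with adjusted p up to 0.0838.

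Of the partners of cathepsin A, Galns rose by 0.73 and 1.56 (edgeR adjusted p = 1.5e-05 and 0.00112) and Glb1, encoding beta-galactosidase, by 0.35 and 0.95 (edgeR adjusted p = 0.000741 and 0.00331). Neu1, encoding the neuraminidase that cathepsin A stabilizes, had log2 fold changes of 0.11 and -0.07, neither past the test (adjusted p = 0.246 and 0.553). Class II presentation depends on Ctss in many antigen-presenting cells. Of 9 listed genes, 4 passed the filter in aging and 8 in the ALS model, but 3 and 4 of these passed it only with the reads of old or SOD1-G93A mice, so no count or median over the list is given. The summed level of the 9 genes was 11.6 to 16.7 CPM in young and 22.7 to 44.5 CPM in old mice, and 11.4 to 15.2 CPM in control and 63.9 to 101 CPM in SOD1-G93A mice. Cd74, encoding the invariant chain itself, had 7 to 27 reads in young mice and 13 to 30 in controls. In aging it was among the genes that passed only with the reads of old mice, so no p-value is given. Its level was 0.915 to 3.50 CPM in young and 4.16 to 15.5 CPM in old mice. In the ALS model, where the reads of controls sufficed for the filter, it rose by 4.28 (edgeR adjusted p = 8.14e-05). In the fractalkine pair the receptor gene Cx3cr1, also a microglia marker here, rose by 0.91 and 1.91 (edgeR adjusted p = 2.86e-08 and 0.000236). The ligand gene Cx3cl1 had a log2 fold change of -0.05 in aging (adjusted p = 0.432) and fell by 0.32 in the ALS model (edgeR adjusted p = 0.0325), a call lost without any 1 of 5 libraries, with adjusted p up to 0.111.

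Among the MiT/TFE factors, which bind the E-box of lysosomal genes, Tfe3 rose by 0.28 and 0.48 (edgeR adjusted p = 0.00378 and 0.00971, the latter 0.0508 without 1 SOD1-G93A mouse), Tfeb and Mitf did not pass the test in either comparison, and Tfec was below the filter. Ctsd and Ctsf are themselves genes of neuronal ceroid lipofuscinosis. Of 11 other genes of that disease, 7 rose and none fell in aging (median log2 fold change 0.17). In SOD1-G93A mice 7 rose and 1, Dnajc5, named after its value was seen, fell (median 0.44). Over all genes 13.5% rose and 12.9% fell in aging, and 18.4% rose and 15.5% fell in SOD1-G93A mice. In aging the call of Cln8 (adjusted p = 0.0459) was lost in 15 of 22 alternatives and that of Tpp1 in 2. In the ALS model Cln8 was lost in 6 of 12 and Cln6 in 3, and Dnajc5 was lost without 1 SOD1-G93A mouse (adjusted p = 0.053). Cln8, Tpp1 and Cln6 were also named after their values were seen. Grn, encoding progranulin, whose product binds cathepsin D, rose by 1.13 and 2.99 (edgeR adjusted p = 8.33e-11 and 0.000182), and Ppt1, encoding a lysosomal thioesterase, by 0.25 and 0.44 (edgeR adjusted p = 0.000155 and 0.0074).

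**Figure D5:**
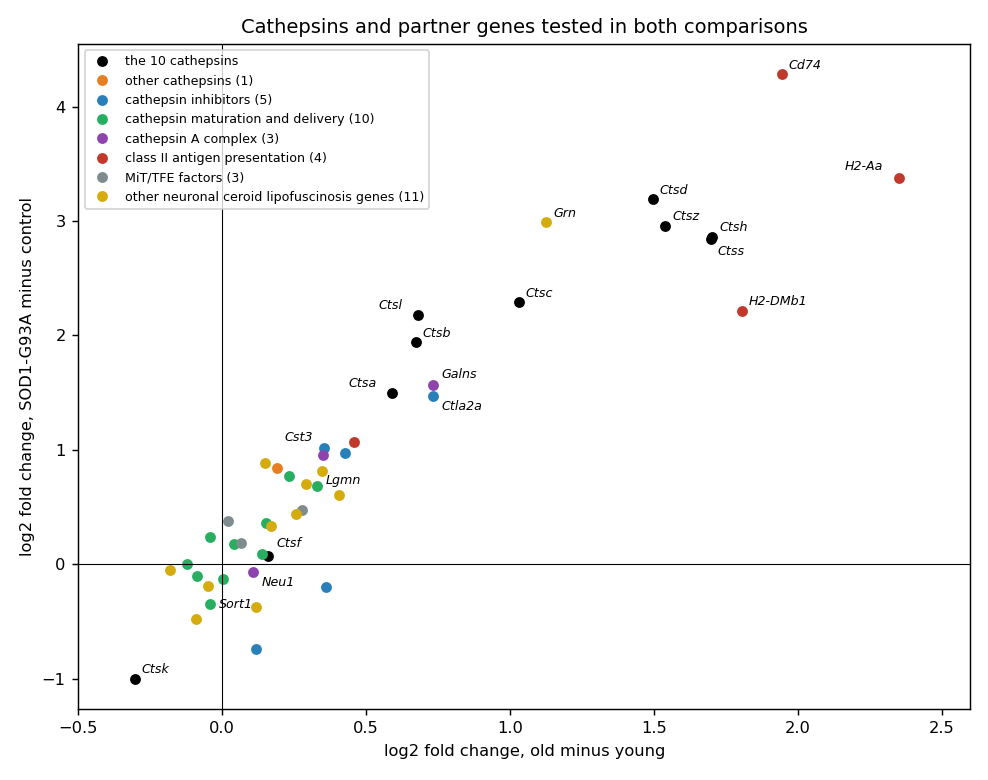
log2 fold change in SOD1-G93A against control mice (vertical) and in old against young mice (horizontal) of the 10 cathepsins and of listed genes tested in both comparisons, with the number of genes of each list in the key. Cst7 is left out because young mice had at most 2 reads. Cd74, H2-Aa, H2-DMb1 and Serpina3g are drawn, although in aging they passed the filter only with the reads of old mice. H2-Aa likewise passed in the ALS model only with the reads of SOD1-G93A mice. Ctsd at 1.50 and 3.19 lies near Grn at 1.13 and 2.99, while most delivery genes lie near 0 on each axis and Ctsk lies lowest at -1.0003.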

How the data were processed

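RNA-seq of whole spinal cord from 22 mice was used, in 4 groups taken from the labels. Alignment with STAR and quantification with RSEM on an Ensembl annotation of mm10 were done by the authors, and the submitters' processing notes name SAMtools 1.3. The authors deposited RSEM expected counts in one table and log2 values, log2 of FPKM plus 1, in the other. Expected counts were rounded to whole numbers. In each comparison genes passed edgeR's filterByExpr (minimum count 10, minimum total 15), library sizes were adjusted by TMM, and the quasi-likelihood test of edgeR was applied, with p-values adjusted by Benjamini-Hochberg across every tested gene, at an adjusted p of 0.05 and, as in the study, a log2 fold change beyond 1. Medians and counts of a list stand in place of a set test. Microglia markers, of which 1 chosen gene was left out after the analysis and is not reported here, were averaged as log2 CPM with a prior count of 2. FPKM were back-transformed from the deposited log2 values. Young and old libraries held fewer counts than the others (ranges in the text), and Ctsk with 31 to 92 reads and Ctsc with 35 to 183 reads outside SOD1-G93A mice are the least precise. Columns name a group but no replicate number. No 2 libraries of a group were identical, and the chi-square per degree of freedom between their counts was 2.52 or more in all 62 pairs. p-values measure the spread between these mice. Gene positions are from GENCODE M21 on GRCm38, which holds 21919 of the 21995 genes. Start regions are from RefSeq on GRCm38.p6. The 10 genes and all lists were chosen with earlier results of these data known. Values are given for all 10 genes, every tested cathepsin and inhibitor, and at most 4 genes of each other list, by smallest adjusted p, except where a gene is said to be named after its value was seen. Microglia markers are named as a list. Alternatives were DESeq2, RLE factors, other filters on low counts, 1 fit of all libraries, limma on the log2 values and leaving out single libraries. Software was edgeR 4.0.16, DESeq2 1.42.0 and limma 3.58.1 in R 4.3.3, and scipy 1.17.1 and pandas 2.3.3 in Python 3.11.15. The edgeR test of each of the comparisons, aging and ALS, was tried on simulated counts with the same spread set for every gene. The permutation tests, the correlations and the fit of all 22 libraries were not tried in this way.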

Additional observations from a re-analysis of the deposited data

Results flagged for a closer look

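Ctsb had a low value in 1 old mouse, 765.5 CPM (766 rounded to 3 digits), with the nearest other old mouse at 980 CPM. This gap was 0.578 of the group's whole range, above Dixon's limit for 8 samples. The rule was applied to 20 groups of 8 mice, and chance flags about 1 group in 20. The same mouse was lowest of the old mice for 9 of the 10 cathepsins and for the summed microglia markers, and Ctsb rose without it by 0.72 on the log2 scale (edgeR adjusted p = 1.21e-12). Its part in the group difference is given by these values and no cause was tested.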

How the results depend on the processing

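No paired analysis was possible because the columns of the tables carry no replicate numbers, so that a block could not be fitted. The 8 cathepsins that rose in each comparison kept direction and adjusted p under 0.05 in every alternative run. In aging, leaving out single libraries gave 8 to 9 genes that rose, 4 to 5 past a log2 fold change of 1 and 0 to 1 that fell, the last being Ctsk without 1 young mouse. In SOD1-G93A mice the count that fell past -1, Ctsk alone, was 0 with at least 10 counts in every library and 0 with limma, and 0 to 1 when single libraries were left out. In the difference of changes the count with a lower change was 0 to 1 when single libraries were left out. Ctsf in SOD1-G93A mice ranged from -0.0305 to 0.146 in that way, and Neu1 turned to 0.0487 with limma. The number of cathepsins past the threshold against microglia markers was 4 on log2 CPM and 6 on log2(FPKM + 1) by Pearson's r. By the median place in single libraries, Ctsf was at place 7 and Ctsz at place 6 in young mice, and Ctsa and Ctsl at place 5 in old mice, in place of 6, 7, 4 and 6. Of genes in the other lists, Ctso, Cln8 and Tpp1 lost their call of aging in some alternative. In SOD1-G93A mice this held for Sort1, Cx3cl1, Dnajc5, Cln8, M6pr, Cln6, Tfe3 and Ctla2a. No share is given, since the called genes include some that passed the filter only with the reads of the group in which they were higher. The causes of these changes were not tested. With 3 mice a group in the ALS experiment, single-gene permutation tests cannot pass 0.05.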
